A study of Xenopus tropicalis with 18 samples.

Results

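The genes described here were expressed at similar levels in 3 dissected regions of the Xenopus tropicalis tailbud embryo and were higher in foregut under each of 3 perturbations than in control foregut. They were chosen from the counts themselves. A gene had to reach 2 CPM (the count scaled to the total of its library) in control foregut. Its highest mean among control head with pharynx, hindgut and foregut had to be under 2 times its lowest. Its mean had to exceed the control foregut mean by more than 1.2 times under each treatment, with all 9 treated libraries above every control foregut library. Of 28863 identifiers, 14520 met the floor and 10481 of those were also flat across the regions. Of these region-flat genes 310 had all 3 ratios above the limit and 242 (2.31%) also had separate libraries. All 9 treated libraries lay above all 3 control foregut libraries in 7.71% of region-flat genes and below them in 2.35%, whatever the ratio. The 100 with the largest smallest ratio are the members. Because these values chose the members, the rise itself is given as a description and without a test.

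The study sequenced messenger RNA from pools of 8 explants of mesoderm and endoderm at Nieuwkoop and Faber stage 33, in 6 groups of 3 libraries. All embryos were wild type, of the Nigerian strain NXR_1018. Rfx6 morpholino foregut came from embryos given 0.1% DMSO and 1 ng of a morpholino against Rfx6, split as 500 pg into each cell at the 2-cell stage. Cyclopamine foregut came from embryos kept in 40 µM cyclopamine and BMS493 foregut from embryos kept in 100 nM BMS493, both from stage 15 to stage 33. The labels of these drug groups name no DMSO and no morpholino. Control head with pharynx and control hindgut had 0.1% DMSO, and control foregut had 0.1% DMSO with 1 ng of a 5-base mismatch morpholino. Control foregut is therefore the only group labelled with a mismatch morpholino, and the 3 treatments share these 3 control libraries. Whether drug embryos also received one is not stated, so drug and morpholino cannot be told apart there. The labels of the other control regions name no morpholino either, so region and morpholino cannot be told apart against control foregut.

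Hedgehog ligands are secreted by gut endoderm and act through the membrane protein Smoothened in the surrounding mesoderm, where they control growth and smooth muscle formation. Cyclopamine blocks Smoothened. Retinoic acid is made in trunk mesoderm and helps to set the position of organs along the gut, and BMS493 is an inverse agonist of its nuclear receptors. Rfx6 is a transcription factor of the endoderm that is needed for endocrine cells of the pancreas and gut. The deposited tables name genes only by Xenbase-style identifiers that pair with no symbol in the reference used here, so the roles of the members are not given. The tissue markers and the Rfx6 transcript could not be checked for the same reason. RNA came from whole explants, so fewer cells of a type and less RNA per cell cannot be told apart in any value below.

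Library totals lay between 26006163 and 96814679 counts, so 1 CPM stood for at least 26 counts. Replicates 1 and 2 of each treated group lay closer than other replicate pairs, with a median squared difference over genes of 1.32, 1.16 and 1.2 in counting variances for Rfx6 morpholino, cyclopamine and BMS493, against 2.24 to 6.81 in all other pairs of a group, where counting error alone gives 0.455. They differed by more than counting error, which does not show that they came from separate explants or RNA. They were kept as separate libraries, and counts with replicates 1 and 2 summed are given as an alternative. Nothing in the labels says whether they came from separate clutches, so p-values measure the spread between these libraries.

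The rise of the members was modest and of similar size under the 3 treatments. Ranking by the smallest ratio puts the same floor under all 3, so the similar size is a description only. The median ratio to control foregut was 1.42 in Rfx6 morpholino foregut, 1.47 in cyclopamine foregut and 1.51 in BMS493 foregut, where the same medians over all 10481 region-flat genes were 1.03, 1.04 and 1.08. All 3 ratios were over 2 in 2 members and over 1.5 in 20 members (0.0191% and 0.2% of region-flat genes). Ratios over 2 were found for 8 members in Rfx6 morpholino foregut, 9 in cyclopamine foregut and 11 in BMS493 foregut. Over region-flat genes these shares were 0.181%, 0.391% and 0.2%, the highest being that of cyclopamine. The last 3 members, at ranks 98, 99 and 100, had smallest ratios of 1.29, and the first 3 genes left out had 1.29, 1.29 and 1.28. The set therefore ends inside a continuum that runs down to the ratio limit at rank 242.

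**Figure D1:**
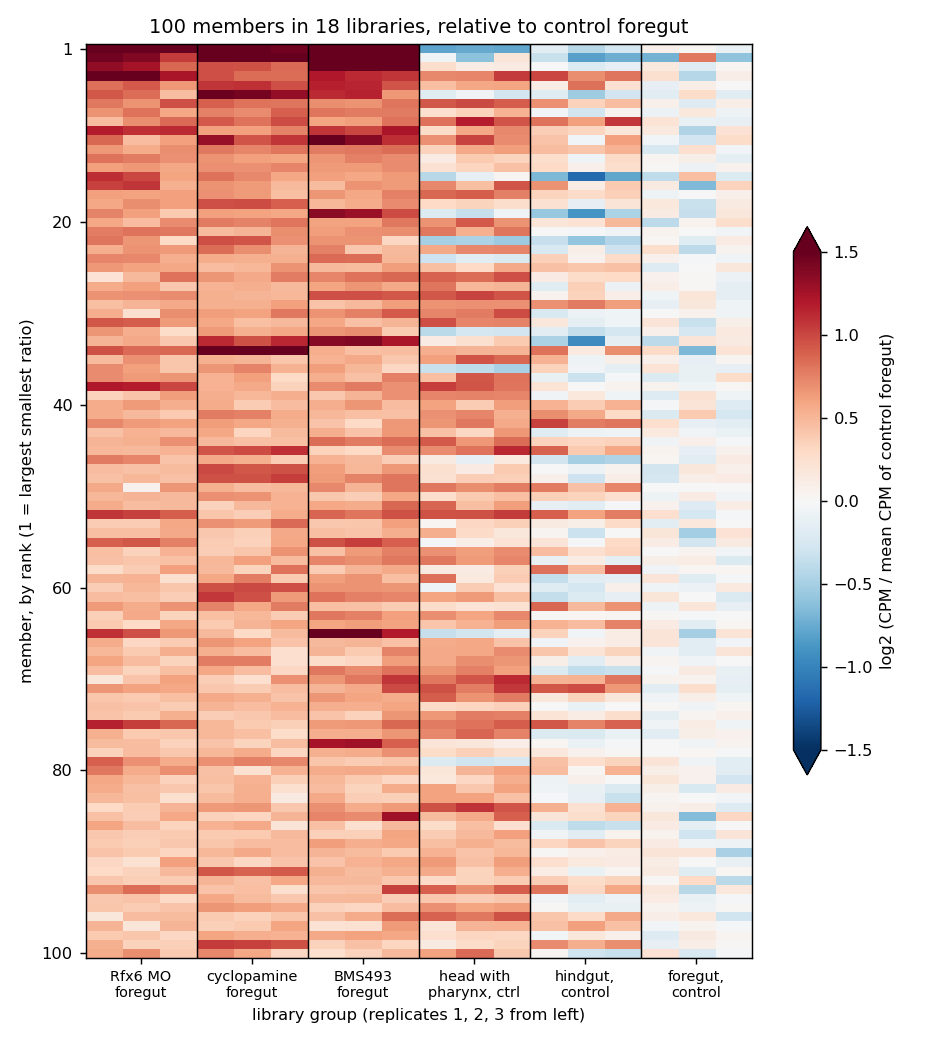
Heat map of the 100 members (down, by rank) in 18 libraries (across, in groups of 3). Colour is the log2 ratio of CPM to the mean CPM of control foregut. The 9 treated libraries are on the red side of the scale for every member, as the choice of members requires, some of them near white.

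Each treated library showed the rise, as the rule demands, and to a like degree, which the common floor under the ratios favours. The median log2 level of the members relative to the control foregut mean was 0.55, 0.51 and 0.55 in Rfx6 morpholino replicates 1, 2 and 3. It was 0.58, 0.56 and 0.54 in the cyclopamine replicates and 0.59, 0.57 and 0.65 in the BMS493 replicates. Control foregut replicates had 0.05, -0.01 and -0.00. In these medians the 9 treated libraries thus lay within a narrow band of one another, which was not tested. The members together held 0.380 ± 0.017% of all counts in Rfx6 morpholino foregut, 0.391 ± 0.00601% in cyclopamine foregut and 0.424 ± 0.0147% in BMS493 foregut, and 0.242 ± 0.00114% in foregut controls (SD over 3 libraries). They are a small part of the RNA in all of these groups.

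In the fit of all genes, 8.25% of 18542 tested genes were called higher in Rfx6 morpholino foregut than in control foregut, 10.2% in cyclopamine foregut and 22.3% in BMS493 foregut, and 8.99%, 9.71% and 24.3% were called lower (quasi-likelihood test of edgeR, a call being an adjusted p under 0.05 after Benjamini and Hochberg). All 100 members passed the filter on low counts. Among them 87 were called higher under the Rfx6 morpholino, 91 under cyclopamine and 87 under BMS493, and 76 in all 3 comparisons. No share over all tested genes is given beside the 76, so that count cannot be weighed. None of the 100 was called lower. Nothing is read from these counts, because the same contrasts chose the members and share the control libraries. With replicates 1 and 2 of each treated group summed, the counts were 34, 47 and 66, where 3.15%, 3.28% and 15.5% of all tested genes were called higher.

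Library totals, which the choice of members used, place the median of all tested genes at 0.04 (log2) for the Rfx6 morpholino, 0.05 for cyclopamine and 0.13 for BMS493 against control foregut. With composition scaling (TMM) these medians were 0.00, 0.00 and -0.00, and the median log2 fold change of the members was 0.47, 0.51 and 0.47. Their lowest fold changes on that scale were 0.33, 0.33 and 0.23, so all 100 stayed above control foregut. The choice of members all but fixed this outcome. With library totals their lowest log2 ratios were 0.37, 0.38 and 0.37, larger than the shifts of the medians between the scales. Applied to TMM-scaled CPM the same rule was met by 181 genes, of which 86 are members, and with DESeq2 size factors by 152 genes, of which 83 are members. Turned round, to genes lowered by all 3 treatments, the rule was met by 85 genes with library totals, 117 with TMM and 146 with DESeq2 size factors. The excess of raised over lowered genes among region-flat genes thus shrank with either scaling, nearly to 0 with the second.

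**Figure D2:**
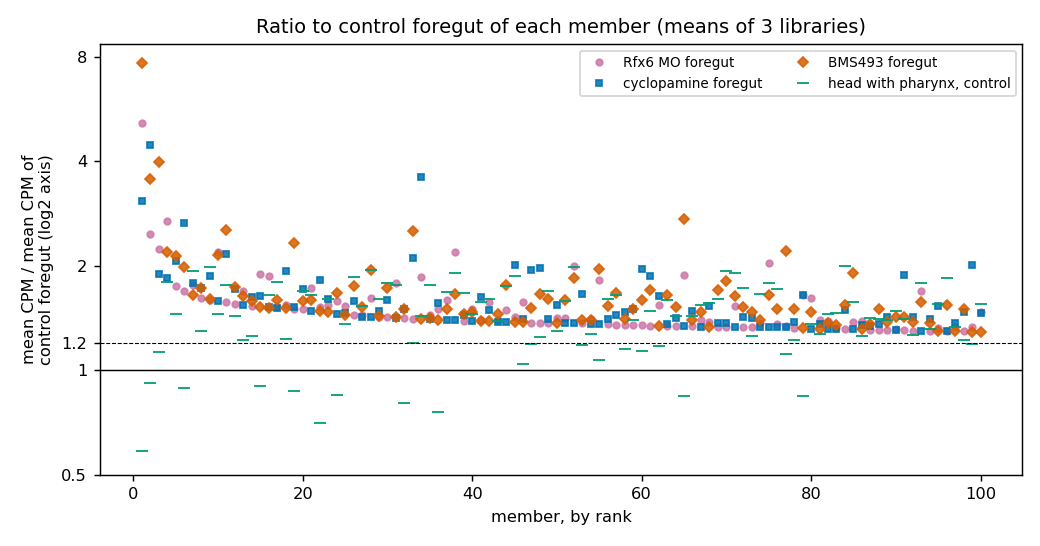
Ratio of mean CPM to the control foregut mean for each member by rank, on a log2 axis, for Rfx6 morpholino (circles), cyclopamine (squares) and BMS493 foregut (diamonds) and control head with pharynx (dashes). The solid line marks 1 and the broken line the limit of 1.2. Most members lie between 1.2 and 2 under every treatment, and ratios above 4 are seen at ranks 1 and 2.

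The first-ranked member, XBXT10g010165, had the highest ratio of all members under the Rfx6 morpholino and under BMS493. It had 245, 225 and 134 CPM in Rfx6 morpholino foregut, 128, 127 and 107 CPM in cyclopamine foregut and 341, 341 and 218 CPM in BMS493 foregut, against 41.3, 39.5 and 36.6 CPM in control foregut. All 9 treated libraries were above 100 CPM and all control foregut libraries near 40 CPM. Head with pharynx had 22.6, 23.2 and 22.8 CPM and hindgut 35.1, 29.2 and 32.7 CPM, so control foregut was its highest control region. The ratio to control foregut was 5.14 under the Rfx6 morpholino, 3.08 under cyclopamine and 7.66 under BMS493. Replicate 3 was the lowest library in each treated group.

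XBXT10g017571, at rank 2, had 18.1, 17.3 and 13.7 CPM in Rfx6 morpholino foregut, 30.4, 29 and 29.3 CPM in cyclopamine foregut and 25.3, 26.1 and 19.2 CPM in BMS493 foregut, against 4.06, 11.5 and 4.34 CPM in control foregut. Control replicate 2 was more than 2 times the other control libraries. It lay below all treated libraries, the nearest being 13.7 CPM. Hindgut, at 4.34 ± 0.809 CPM, and head with pharynx, at 6.06 ± 1.61 CPM (SD, n = 3), were near the other control foregut libraries.

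XBXT10g002808, at rank 3, had 171, 162 and 123 CPM in Rfx6 morpholino foregut, 133, 132 and 123 CPM in cyclopamine foregut and 302, 301 and 211 CPM in BMS493 foregut, against 75.3, 59.4 and 69.5 CPM in control foregut. BMS493 libraries were the highest and did not overlap with those of the other treatments. Head with pharynx, at 76.7 ± 4.32 CPM, and hindgut, at 63.4 ± 4.78 CPM (SD, n = 3), lay close to control foregut. Its rise therefore took it above all 3 control regions, as at ranks 1 and 2.

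In other members the 3 treatments gave similar levels. The member at rank 14 had 289, 296 and 282 CPM in Rfx6 morpholino foregut, 303, 302 and 312 CPM in cyclopamine foregut and 294, 294 and 307 CPM in BMS493 foregut, against 191, 177 and 196 CPM in control foregut. At rank 8 stood a gene with 32, 35.1 and 29.8 CPM in Rfx6 morpholino foregut, 33.8, 32.8 and 37.3 CPM in cyclopamine foregut and 35.1, 34.5 and 34.5 CPM in BMS493 foregut, against 18.9, 22.3 and 19 CPM in control foregut. The gene at rank 17 averaged 39.7 ± 0.228, 39.2 ± 3.21 and 41.3 ± 2.55 CPM in Rfx6 morpholino, cyclopamine and BMS493 foregut, against 26 ± 1.31 CPM in control foregut (SD, n = 3). At ranks 8 and 17 libraries of all treatments mixed, and at rank 14 the cyclopamine libraries lay just above those of the Rfx6 morpholino. Across the members, the largest treatment ratio was under 1.1 times the smallest in 27 and over 1.5 times in 13, where the shares among region-flat genes were 18.4% and 8.9%.

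**Figure D3:**
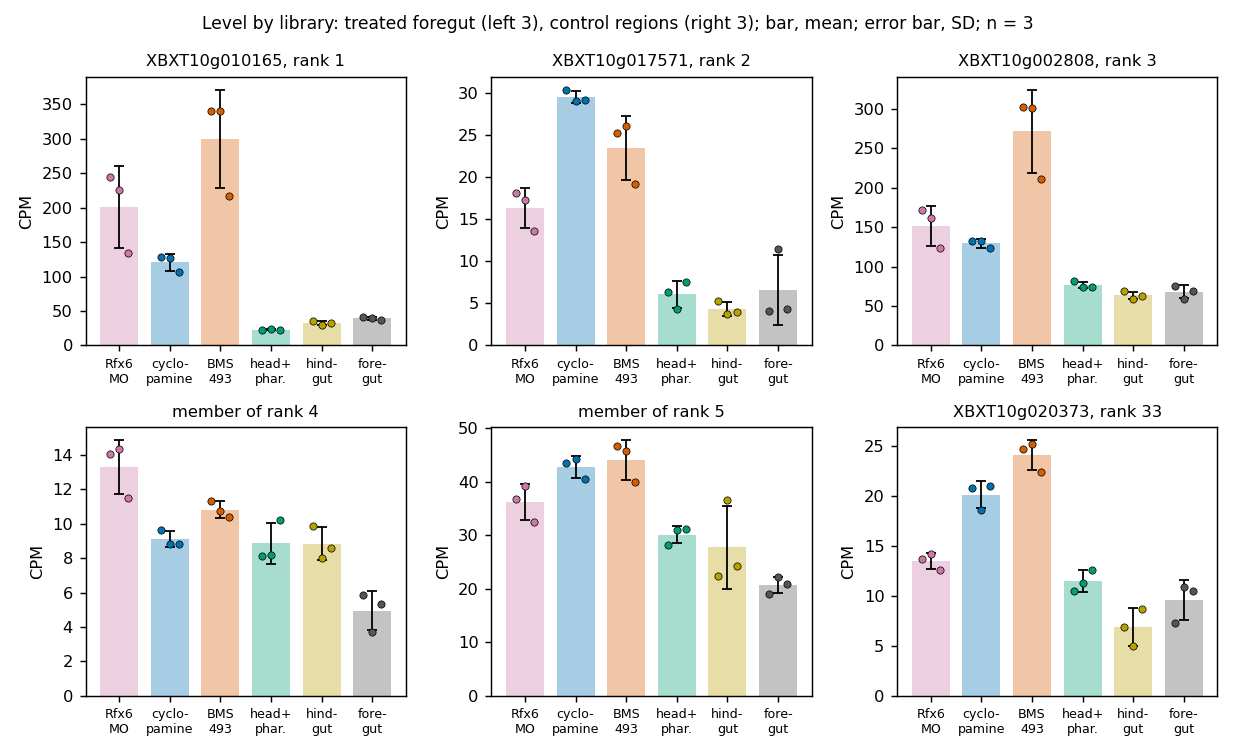
CPM of 6 members in the 18 libraries. Points are libraries, bars are means and error bars are SD (n = 3), with treated foregut on the left of each panel and the control regions on the right. At ranks 1 and 3 the BMS493 mean is the highest, at rank 2 the cyclopamine mean, and at rank 4 the Rfx6 morpholino mean.

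Comparisons between treatments were not used to choose the members. A demand that every treatment be above control leaves out genes that treatments moved in opposite directions. Of the 100 members 66 were called in no contrast between treatments, 34 in at least 1 and 22 in at least 2 (edgeR, adjusted over 18542 genes). Over all tested genes the shares were 44.5%, 55.5% and 36.8%, and over region-flat genes 48.8%, 51.2% and 30.6%. The rule sets no upper limit on how far the treatments of a member can lie apart. Members also had lower levels and a wider spread between libraries than region-flat genes. The gap between these shares and the members' counts was not tested. These counts come from the fit without a replicate block. With the block in fits of 6 libraries, 50 members were called in no contrast (32.3% of all tested genes), 50 in at least 1 (67.7%) and 38 in at least 2 (50.2%). Region-flat genes had 33%, 67% and 46.7% in those fits. With replicates 1 and 2 of each treated group summed, the counts were 84 (74%), 16 (26%) and 4 (11.6%). Region-flat genes had 83.3%, 16.7% and 5.68% there, so the members lay close to them in that fit. In the 66, the largest treatment ratio was at the median 1.13 times the smallest, with a range from 1.03 to 1.81. The highest of these was that of XBXT10g017571. A contrast that was not called does not show equal levels, since the median SE of a member's log2 fold change was 0.11.

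In Rfx6 morpholino against cyclopamine foregut 8 members were higher and 12 lower, 20% of the members, where 21.2% of all tested genes and 19.9% of region-flat genes were called (10.2% of all genes higher and 11.1% lower). The median difference of the members was -0.03 log2 and the range -0.96 to 0.75. Regardless of sign, the median difference was 0.125 log2 in members and 0.133 in region-flat genes. With replicates 1 and 2 of each treated group summed, which leaves fewer libraries, 2 members were higher and 2 lower, and 3.87% of all tested genes were called. The number of higher members was 3 without cyclopamine replicate 1, 3 without cyclopamine replicate 2, 5 without cyclopamine replicate 3, 4 without Rfx6 morpholino replicate 1 and 3 without Rfx6 morpholino replicate 2. Over all tested genes the higher share in those fits was also smaller, at 5.64%, 5.84%, 7.67%, 6.28% and 5.92%. The number was 13 (12.1% of all tested genes) when replicate 3 was dropped from both the Rfx6 morpholino and the BMS493 libraries. XBXT10g010165 was higher in Rfx6 morpholino foregut by 0.75 ± 0.235 log2 (SE, adjusted p = 0.0478 with edgeR), a call that was lost in 13 of 21 alternatives, among them those without any 1 control foregut or cyclopamine library, without Rfx6 morpholino replicate 1 or 2 and without BMS493 replicate 1 or 2 (adjusted p between 0.0582 and 0.162). XBXT10g017571 was lower by -0.84 ± 0.317 log2 and was not called (adjusted p = 0.0871 with edgeR). It was called in 3 of 21 alternatives, among them that without control replicate 2 (adjusted p = 0.000694 with edgeR).

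In Rfx6 morpholino against BMS493 foregut 7 members were higher and 6 lower, 13% of the members, where 37% of all tested genes and 31.2% of region-flat genes were called (19.7% of all genes higher and 17.3% lower). The median difference of the members was 0.03 log2 and the range -0.74 to 0.50. Regardless of sign, the median difference was 0.142 log2 in members and 0.155 in region-flat genes, so sizes were closer than the shares called. XBXT10g002808 was lower in Rfx6 morpholino foregut by -0.74 ± 0.163 log2 (SE, adjusted p = 0.0047 with edgeR). That call was lost with replicates 1 and 2 of each treated group summed (adjusted p = 0.0539). XBXT10g020373, at rank 33, had 13.7, 14.2 and 12.6 CPM in Rfx6 morpholino foregut and 24.7, 25.2 and 22.4 CPM in BMS493 foregut, a difference of -0.74 ± 0.128 log2 (SE, adjusted p = 0.000779 with edgeR). It was also lower than in cyclopamine foregut, where it had 20.8, 18.6 and 21 CPM (-0.57 log2, adjusted p = 0.00817 with edgeR, and 0.0941 with replicates 1 and 2 summed). Its control foregut level was 7.33, 10.9 and 10.5 CPM. Replicate numbers of these 2 groups deviated together, and with the replicate block in a fit of these 6 libraries 10 members were higher and 14 lower, where 23.4% of all tested genes were higher and 22% lower. XBXT10g010165 was not called without the block (-0.48 log2, adjusted p = 0.136 with edgeR) and was called with the block over all 12 foregut libraries (-0.49 log2, adjusted p = 0.0172). Of 21 alternatives 5 called it, among them also that without BMS493 replicate 3 (-0.68 log2, adjusted p = 0.0386 with edgeR). XBXT10g017571 was not called without the block or with it over 12 libraries (-0.43 log2, adjusted p = 0.314 and 0.249 with edgeR), and was called in the blocked fit of 6 libraries (adjusted p = 0.00216) and without control replicate 2 (adjusted p = 0.0188). Higher members numbered 12 without control replicate 2 (22.1% of all tested genes), 4 without BMS493 replicate 2 (15.3%), 3 without Rfx6 morpholino replicate 1 (14.8%) and 4 without Rfx6 morpholino replicate 2 (14.7%). Lower members numbered 10 without control replicate 2 (19.1%) and 3 without BMS493 replicate 1 (13.9%). With library totals 3 members were higher and 18 lower. All tested genes turned the same way on that scale, with 14.7% higher and 25.9% lower and a median of -0.09 log2.

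In cyclopamine against BMS493 foregut 14 members were higher and 9 lower, 23% of the members, where 38.7% of all tested genes and 33.7% of region-flat genes were called (20.8% of all genes higher and 17.9% lower). The median difference was 0.05 log2 and the range -1.23 to 1.46. Regardless of sign, the median difference was 0.151 log2 in members and 0.163 in region-flat genes, again closer than the shares called. With library totals 10 members were higher and 15 lower. All tested genes turned the same way on that scale, with 14.8% higher and 24.6% lower and a median of -0.07 log2. XBXT10g010165 was lower in cyclopamine foregut by -1.23 ± 0.237 log2 (SE, adjusted p = 0.00284 with edgeR) and XBXT10g002808 by -0.98 ± 0.163 log2 (adjusted p = 0.000972). These calls held in all 21 alternatives. XBXT10g017571 was not called at 0.41 log2 (adjusted p = 0.332 with edgeR). It was called in 3 of 21 alternatives, among them that without control replicate 2 (adjusted p = 0.0222 with edgeR). The largest positive difference was that of the member at rank 34, which had 109, 115 and 102 CPM in cyclopamine foregut and 43.8, 41.2 and 41.3 CPM in BMS493 foregut, 1.46 ± 0.188 log2 (SE, adjusted p = 0.000243 with edgeR). Its Rfx6 morpholino libraries lay between, at 58.3, 54.2 and 54.4 CPM, and its control foregut libraries at 36.7, 18.8 and 34.6 CPM, replicate 2 being low. Only this member and XBXT10g010165 differed at least 2-fold between treatments and were called, both in this contrast.

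**Figure D4:**
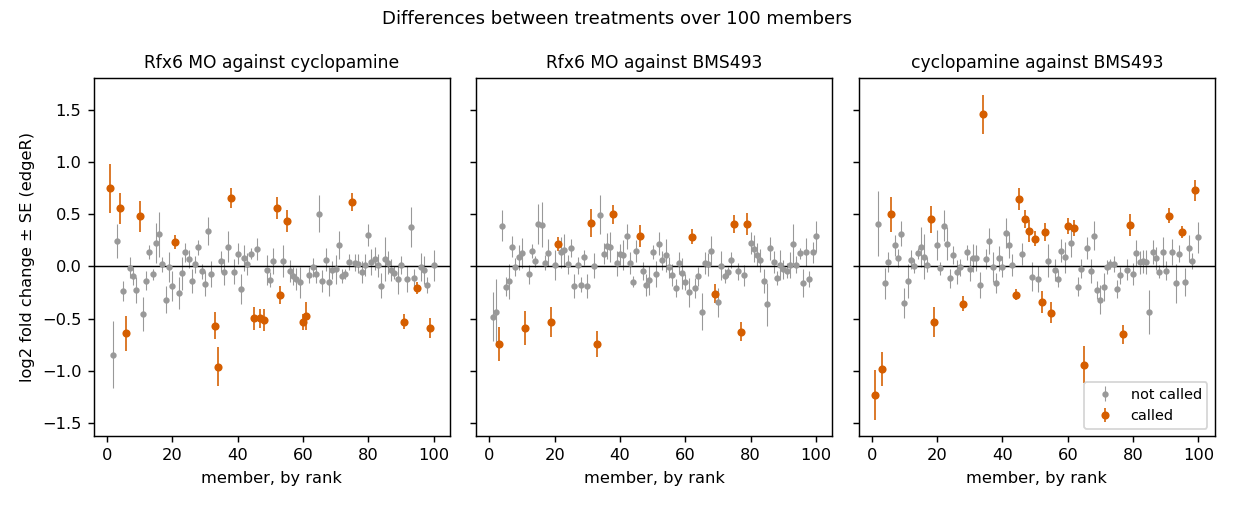
Log2 fold change ± SE between treatments for each member by rank, in 3 panels, from the edgeR fit of 12 foregut libraries. Called members are orange and the others grey. Called members lie on both sides of 0 in each panel, 8 above and 12 below in the first, 7 and 6 in the second and 14 and 9 in the third.

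Gene by gene, 22 members had 1 treatment called above or below both others, and which treatment that was depended on the scaling. They are the members called in at least 2 contrasts, as were 36.8% of all tested genes and 30.6% of region-flat genes. With replicates 1 and 2 summed, 4 members had such a treatment, cyclopamine being above both others in 2 (1.27% of all tested genes and 0.992% of region-flat genes). In that fit 11.6% of all tested genes and 5.68% of region-flat genes were called in at least 2 contrasts. With TMM, cyclopamine foregut was called above both other treatments in 10 members (5.84% of all tested genes and 5.96% of region-flat genes), with a median ratio to control foregut of 1.96 under cyclopamine, where the Rfx6 morpholino gave 1.37 and BMS493 1.41. One of them, the member at rank 99, had 7.4, 6.48 and 6.54 CPM in Rfx6 morpholino foregut, 10.6, 10.4 and 9.89 CPM in cyclopamine foregut and 6.51, 6.92 and 6.37 CPM in BMS493 foregut, against 4.67, 5.46 and 5.19 CPM in control foregut. Cyclopamine was below both others in 3 members (3.99% of all tested genes and 3.59% of region-flat genes), among them XBXT10g010165, whose difference from BMS493 was called and whose difference from the Rfx6 morpholino was close to the threshold. BMS493 was above both others in 3 members (10.3% of all tested genes and 4.67% of region-flat genes), and the Rfx6 morpholino was above both others in another 3 (5.17% and 4.59%). BMS493 was below both others in 2 members (11.9% and 11.7%), and the Rfx6 morpholino in XBXT10g020373 alone (4.16% and 3%). With library totals, cyclopamine was above both others in 7 members (4.78% of all tested genes and 4.42% of region-flat genes) and BMS493 in 9 (15.8% and 11.7%). On that scale BMS493 foregut also had the highest mean of the 3 treatments in 45 members, cyclopamine foregut in 31 and Rfx6 morpholino foregut in 24, much as over region-flat genes (46.5%, 29.1% and 24.4%).

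Members in which 1 treatment stood apart differed in size. The member at rank 77 was highest under BMS493, with 113, 111 and 102 CPM in Rfx6 morpholino foregut, 109, 102 and 111 CPM in cyclopamine foregut and 191, 195 and 151 CPM in BMS493 foregut, against 81.2, 77.9 and 83.6 CPM in control foregut. The gene at rank 75 was highest under the Rfx6 morpholino, with 93.9, 87 and 77 CPM in Rfx6 morpholino foregut, 59.6, 55.3 and 54 CPM in cyclopamine foregut and 65.8, 66.3 and 76.7 CPM in BMS493 foregut, against 40.8, 45.7 and 40.4 CPM in control foregut. The gene at rank 79 was lowest under BMS493, with 18, 15.5 and 14.2 CPM in Rfx6 morpholino foregut, 15.5, 16.2 and 15.8 CPM in cyclopamine foregut and 12.9, 12.6 and 12.9 CPM in BMS493 foregut, against 11, 9.34 and 8.57 CPM in control foregut. At ranks 77 and 79 the libraries of the other treatments overlapped, and at rank 75 those of BMS493 lay above those of cyclopamine.

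Although chosen to be flat within 2-fold, the members were not level across the control regions. Head with pharynx was the highest control region for 79 of 100 members and control foregut the lowest for 59, where the shares of region-flat genes were 61.2% and 18.9%. The median ratio to control foregut was 1.45 for head with pharynx and 1.11 for hindgut, where region-flat genes had 1.12 and 0.927. All 3 head with pharynx libraries were above all 3 control foregut libraries in 78 members (46% of region-flat genes) and below them in 6 (14.5%). All 3 hindgut libraries were above them in 36 members (12.5%) and below them in 9 (32.5%). These differences are described and not tested, because the choice of members bounded them and favoured genes that are low in the control foregut libraries. Among the control regions only those libraries were labelled with a mismatch morpholino, so region and morpholino cannot be told apart in these differences. Head with pharynx against hindgut leaves those libraries out. The mean was higher in head with pharynx for 83 members, with a median ratio of 1.28, and for 69.6% of region-flat genes, with a median ratio of 1.19. All 3 head with pharynx libraries were above all 3 hindgut libraries in 60 members (54.9% of region-flat genes) and below them in 8 (18.8%). The flatness limit bounds this ratio as well.

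**Figure D5:**
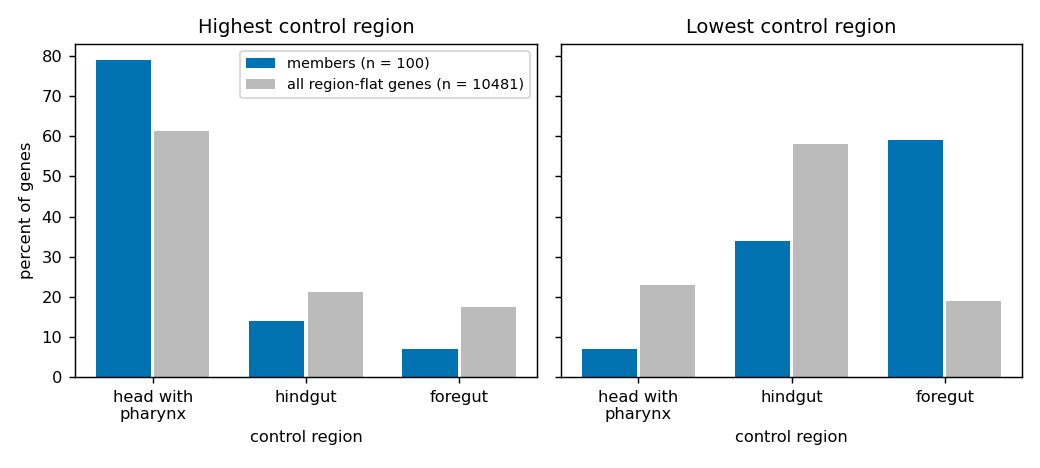
Percent of genes whose highest (left) and lowest (right) mean CPM was in each control region, for the 100 members (blue) and all 10481 region-flat genes (grey). Head with pharynx was highest for 79% of members and control foregut lowest for 59%, partly by the choice of members. Of these regions only control foregut was labelled with a mismatch morpholino.

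Under treatment, foregut levels of the members came close to those of control head with pharynx at the median, but varied widely between members. The median ratio to head with pharynx was 1 for Rfx6 morpholino foregut, 1.02 for cyclopamine foregut and 1.04 for BMS493 foregut, where region-flat genes had 0.92, 0.93 and 0.959. Over the members these ratios ran from 0.661 to 8.80, from 0.690 to 5.28 and from 0.738 to 13.1. Means lay above head with pharynx in 50, 53 and 56 members under the 3 treatments and below it in the others, where the shares above it over region-flat genes were 34.8%, 36.6% and 35.8%. All 9 treated libraries were above all 3 head with pharynx libraries in 26 members (7.32% of region-flat genes) and below them in 5 (18.3%). They were above all 3 hindgut libraries in 62 members (33.9%) and below them in 2 (8.13%). The treated libraries are the ones that chose the members, so these shares are no separate support for the rise.

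Treated means could lie above the control range or within it. In 37 members (3.77% of region-flat genes) all 3 treated means were above every control region, as for ranks 1, 2, 3, 8 and 14. In 30 members (21.8%) all 3 treated means lay between control foregut and head with pharynx. The gene at rank 17 is one, with 47.3, 48.7 and 43.9 CPM in head with pharynx and 24.7, 26 and 27.3 CPM in control foregut. That at rank 9 is another, with 8.02, 10.3 and 8.78 CPM in head with pharynx and 5.24, 4.21 and 4.19 CPM in control foregut, and its treated libraries ran from 6.27 to 8.95 CPM, so that its upper libraries overlapped with head with pharynx. The other members belong to neither kind. The rule puts every treated mean above control foregut and bounds the control regions. Both counts were thus partly fixed by the choice of members, and their distance from the region-flat shares was not tested.

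The members were of lower level than region-flat genes in general. Per length, the authors' TPM gave a median of 8.5 in control foregut, where region-flat genes had 17.2. Cut into 5 bins of equal size by control foregut CPM, region-flat genes contributed 40, 25, 18, 10 and 7 members from the lowest bin to the highest. The spread between libraries was also wider. The median coefficient of variation of members was 6.94% in Rfx6 morpholino foregut, 6.1% in cyclopamine foregut, 6.3% in BMS493 foregut and 11.4% in control foregut, where region-flat genes had 5.52, 5.05, 5.01 and 8.08%. Members and region-flat genes were not matched for level, so the wider spread in all 4 groups cannot be told apart from the lower level. Its part in the choice of members was not tested. Transcript length, from counts per TPM, had a median of 0.876 times that of region-flat genes.

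Single control libraries weighed more on the choice than single treated ones. The rule itself favours this, since each control foregut library enters all 3 ratios and a treated library only 1. Without 1 treated library at a time, 238 to 270 genes met the rule, and 99 or 100 of the members met it still. The 100 highest ranked genes then held 90 to 97 of the members. Without control foregut replicate 1, 2 or 3 there were 367, 360 and 301 genes, among which 95, 91 and 96 members remained, but the 100 highest ranked genes then held only 72, 64 and 73 of the members. A place among the 100 thus depended on single control libraries more than meeting the rule did.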

How the data were processed

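Per gene, the authors supplied RSEM's estimated counts, deposited as whole numbers, and a second table of TPM for the same 18 libraries. Quantification used RSEM 1.3.0 with Bowtie2, per the submitters' processing notes, and neither build nor annotation is given in the sources used here. Libraries were made with a stranded messenger RNA kit, per the labels' protocols. Columns were assigned by names that match sample titles, and the TPM headers misspell the word control. The entry without a gene name held 0 counts. The 28863 identifiers matched 0 of 28858 RefSeq genes, so 22 gene and marker lists, fixed by symbol, could not be used and no sequence is shown. How RSEM divided reads between near-identical copies was not examined.

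CPM for choosing members used library totals. The test was that of edgeR 4.0.16 under R 4.3.3 (quasi-likelihood, robust, TMM, minimum count of 10, group as the only term) on the 12 foregut libraries, and calls were made at a Benjamini-Hochberg adjusted p under 0.05 over 18542 genes. The step was also run on simulated libraries, drawn independently with a common spread. They hold neither close replicates 1 and 2 nor deviations shared between groups, so nothing about the calls is concluded from them. DESeq2 1.42.0 was an alternative. Relative length is the count per TPM, scaled to the median of region-flat genes in each library. Same-numbered libraries of the Rfx6 morpholino and BMS493 groups deviated together (correlations of 0.291, 0.263 and 0.438 over genes). The labels state no pairing, and the main counts for that contrast come from the fit without a replicate block. Blocked fits are given beside them as alternatives. Replicates 1 and 2 lay close in both groups and deviations were from group means, so these correlations are not independent. A shared difference of replicate 3 alone cannot be told apart from pairing of all replicates. Members, lists and tests were chosen with earlier results of these data known. Named identifiers are, by rule, the 2 highest ranked members and the 2 members that fell most in Rfx6 morpholino against BMS493 foregut, and others are given by rank, those quoted having been picked after their values were seen.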

Additional observations from a re-analysis of the deposited data

How the results depend on the processing

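Directions of the named identifiers between treatments held in every alternative run. The number of genes that met the rule, 242, was 181 with TMM, 152 with DESeq2 size factors, 160 with deposited TPM (76 members met it), 641 at a ratio over 1.1, 20 over 1.5 and 97 at a flatness limit of 1.5 (42 members), and 238 to 367 with 1 foregut library left out. With replicates 1 and 2 of each treated group summed, 2 members were higher and 2 lower in Rfx6 morpholino against cyclopamine foregut, 1 and 2 in Rfx6 morpholino against BMS493 and 8 and 5 in cyclopamine against BMS493, where 3.87%, 15.8% and 18.4% of all tested genes were called, and 34 and 47 were higher in Rfx6 morpholino and cyclopamine foregut than in control. Library totals gave 3 higher and 18 lower in Rfx6 morpholino against BMS493 and 15 lower in cyclopamine against BMS493, where all genes leaned the same way, and the DESeq2 test 12 lower in Rfx6 morpholino against BMS493 (12.9% of all identifiers). Fitted on the 6 libraries alone, the counts had 57 members higher in Rfx6 morpholino foregut than in control (4.93% of all tested genes). The cause of these moves was not tested. Counts of members against control, here and in the fits below, are a description only, because the same contrasts chose the members.

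With the replicate block over all 12 foregut libraries, counts in the 3 contrasts were 8 higher and 14 lower, 8 and 8, and 16 and 9, where 11.3% and 12.6%, 20.5% and 19.8%, and 21.9% and 19.4% of all tested genes were called. In blocked fits of 6 libraries, added after the data were seen, 16 were higher and 21 lower in Rfx6 morpholino against cyclopamine, 14 lower in Rfx6 morpholino against BMS493 and 15 lower in cyclopamine against BMS493, and 35 higher in Rfx6 morpholino foregut than in control. Over all tested genes in these blocked fits, 18.9% were higher and 18.1% lower in Rfx6 morpholino against cyclopamine. In the same order as the other counts, 22% and 22.9% were lower, and 2.9% were higher than in control. Outside Rfx6 morpholino against BMS493 the groups share only a number, with same-numbered correlations from -0.0999 to 0.112. Dropping replicate 3 from both the Rfx6 morpholino and the BMS493 libraries, also added later, left 13 members higher in Rfx6 morpholino against cyclopamine (12.1% of all tested genes).

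Leaving out 1 library gave 3 to 11 higher and 8 to 16 lower members in Rfx6 morpholino against cyclopamine, 3 to 12 and 3 to 10 in Rfx6 morpholino against BMS493, and 10 to 18 and 8 to 13 in cyclopamine against BMS493. Over all tested genes the same ranges were 5.64 to 13% higher and 6.12 to 13.3% lower, 14.7 to 22.1% and 11.6 to 19.1%, and 15.8 to 23.3% and 12.6 to 19.8%. Against control it left 60 to 89, 63 to 92 and 77 to 90 members called (4.93 to 8.98%, 5.64 to 11.7% and 18.7 to 24% of all tested genes). Nothing is read from the distance between these counts and shares, which the choice of members made. In the shallowest library 1 CPM stood for 26 counts, which bounds the counting error of members near the floor.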
